A study of Mus musculus with 7 samples.

Results

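Limb mesenchyme transcription factors are DNA-binding proteins that give the loose connective cells of the limb bud their identity and position. The 10 genes described here are the paired-related homeobox genes Prrx1 and Prrx2, the basic helix-loop-helix genes Twist1 and Twist2, the homeobox genes Msx2, Alx4 and Shox2, the LIM-homeodomain gene Lmx1b, and the T-box genes Tbx2 and Tbx3. They were chosen by name for this role, and make up 10 of the 22180 genes measured. Each was read by 1 probe set (a group of array probes summarised into 1 value) whose annotation lists that gene alone. Msx1, the close relative of Msx2, was not analysed here because its probe sets also list the antisense gene Msx1os.

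Total RNA was measured on 1-colour arrays in tissue of C57Bl/6 mice, in 4 uninjured digits (no amputation) and in 3 blastemas taken 2 weeks after amputation. A blastema is the mound of cells that forms at an amputated digit tip and rebuilds it. No transgene or drug is named for either group, with age, sex, the part of the uninjured digit taken and any pooling of animals not given in the sources used here. GEO's labels call the samples of a group biological replicates, numbered 1 to 4 and 1 to 3, and each sample is named below by its array number.

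As background, the PRRX proteins mark limb bud and later connective tissue cells, and act in partly overlapping ways in limb skeleton formation. TWIST proteins pair with other helix-loop-helix proteins at DNA sites called E-boxes and hold mesenchymal cells in an immature state. MSX2 answers to bone morphogenetic protein signals and is active in the digit tip and nail region, LMX1B sets dorsal identity, TBX2 and TBX3 are repressors of the limb margins, ALX4 acts at the anterior side, and SHOX2 acts in the proximal skeleton. Mouse digit tips regrow from cells that keep to their own lineage, and connective tissue cells carrying such factors are among them.

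The promoters of the Prrx and Twist pairs are shown, because 1 gene of each passed the test between groups. That choice is not a result about a difference within a pair. As given below, the direct comparison of Prrx1 with Prrx2 did not pass after adjustment, and Twist2 was not above background on any array. RefSeq windows (build GRCm38.p6) matched 7 of the 10 genes. No window was matched for Tbx2, Tbx3 or Alx4. Each line gives the 250 bases before the transcript start, 5′ to 3′ on the gene's strand, with matches to the homeodomain core TAATTA, the E-box CANNTG or the CCAAT box in capitals. Prrx1 lies at chr1:163313651-163313900 (minus strand), Prrx2 at chr2:30845117-30845366 (plus strand), Twist1 at chr12:33957421-33957670 (plus strand) and Twist2 at chr1:91801211-91801460 (plus strand).
Prrx1: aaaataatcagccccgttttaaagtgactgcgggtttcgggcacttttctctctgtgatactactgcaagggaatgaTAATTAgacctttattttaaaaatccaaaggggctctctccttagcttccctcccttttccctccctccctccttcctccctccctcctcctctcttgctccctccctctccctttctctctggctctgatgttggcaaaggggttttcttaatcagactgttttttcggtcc
Prrx2: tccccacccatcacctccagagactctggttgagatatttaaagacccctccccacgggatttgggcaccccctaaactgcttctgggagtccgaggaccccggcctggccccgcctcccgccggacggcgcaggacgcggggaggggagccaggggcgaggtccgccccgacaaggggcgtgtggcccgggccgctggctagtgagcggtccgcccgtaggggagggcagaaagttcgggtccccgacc
Twist1: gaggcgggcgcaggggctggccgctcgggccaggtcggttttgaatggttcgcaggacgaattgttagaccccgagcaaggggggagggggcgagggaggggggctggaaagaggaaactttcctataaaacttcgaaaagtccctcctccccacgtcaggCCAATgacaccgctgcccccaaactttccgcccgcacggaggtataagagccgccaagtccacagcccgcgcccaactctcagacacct
Twist2: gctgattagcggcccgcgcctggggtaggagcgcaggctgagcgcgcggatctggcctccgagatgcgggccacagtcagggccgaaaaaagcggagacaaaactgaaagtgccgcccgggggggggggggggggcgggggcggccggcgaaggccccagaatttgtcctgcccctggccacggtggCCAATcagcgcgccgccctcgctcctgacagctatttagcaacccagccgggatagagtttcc

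The Prrx1 window was the AT-richer of its pair, with 47.6% G and C against 70.0% for Prrx2. It held 1 TAATTA, beginning 173 bases before the start, and Prrx2 held none. On both strands, 4.84% of 32851 windows of this length held TAATTA, and among the 7 matched genes it was also found in Msx2. The Twist windows each held 1 CCAAT box, beginning 89 bases before the start in Twist1 and 63 in Twist2, a motif found in 33.85% of windows. GC boxes (GGGCGG, in 32.74% of windows, not capitalised) numbered 2 in Prrx2, 1 in Twist1 and 4 in Twist2. No E-box was found in these 4 windows, while 66.22% of all windows held at least 1. These matches describe letters only, and no binding was measured.

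Prrx1 and Twist1 rose in the blastema, and none of the other limb mesenchyme factors passed the test in either direction. By limma with Benjamini-Hochberg adjustment over all genes, 2 of the 10 were higher (4.98% of all genes were) and 0 were lower (4.66% of all genes). At an unadjusted limma p under 0.05 there were 5, all higher. The largest of these p-values, 0.0498 for Alx4, was 0.200 after adjustment. The share of all genes at that cut is not given, so this count and those like it below are not read as a result. The groups did not overlap for 4 genes, Prrx1, Twist1, Tbx2 and Alx4, all higher in the blastema (10.4% of all genes), and for 0 in the lower direction (10.6% of all genes). The median log2 fold change of the 10 was 0.32, against -0.0054 over all genes. In tissue of mixed cells, more cells of a type and more RNA per cell cannot be told apart.

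**Figure D1:**
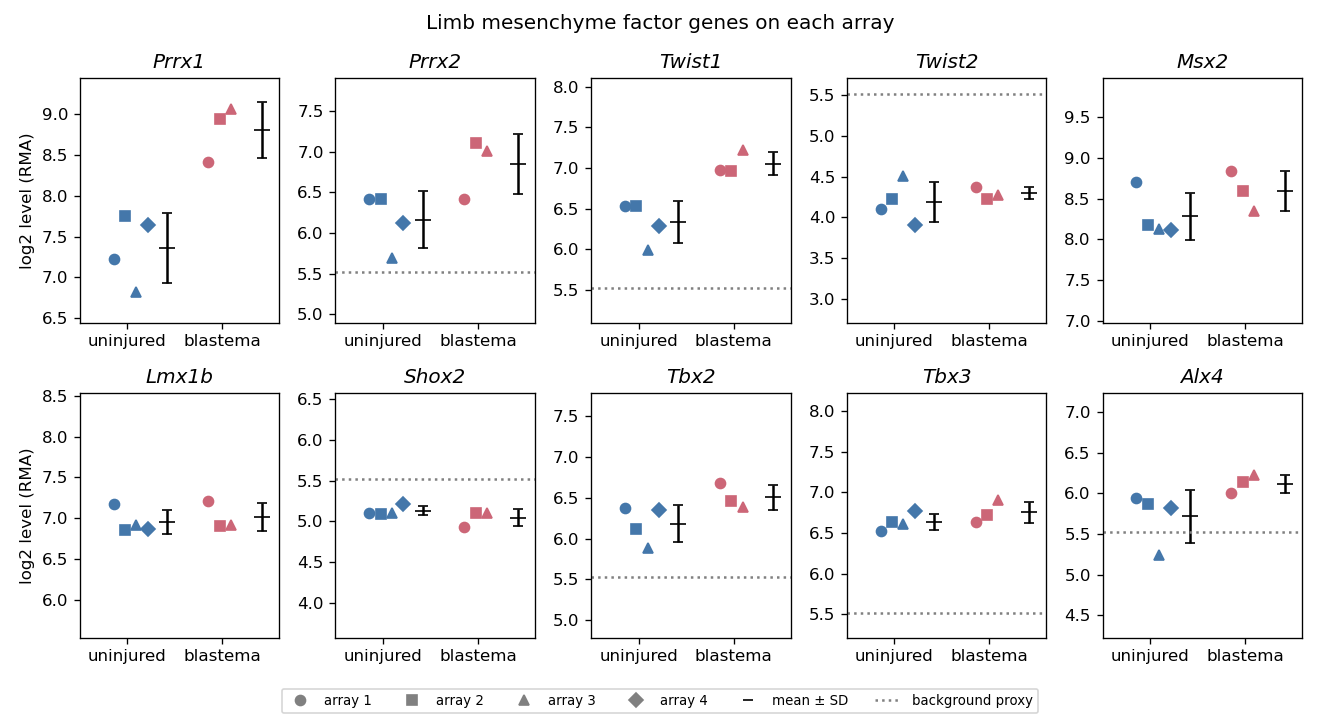
Deposited log2 level (vertical axis, each panel spanning the same number of log2 units) of each gene on the 4 uninjured and 3 blastema arrays, with symbols for the array number, bars for mean ± SD and a dotted line at the background proxy of 5.52. Blastema arrays lie above all uninjured arrays for Prrx1, Twist1, Tbx2 and Alx4, and Twist2 and Shox2 lie under the dotted line throughout.

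Arrays carry no detection calls, so a level of 5.52 served as a proxy for background. Of 1105 olfactory receptor genes, which are mostly silent outside the nose, 95% had a mean level under it. Prrx1, Prrx2, Twist1, Msx2, Lmx1b, Tbx2 and Tbx3 were above it on all 7 arrays and Alx4 on 6, while Twist2 and Shox2 were above it on 0.

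Prrx1 showed the largest change of the 10. Its log2 level was 7.22, 7.75, 6.82 and 7.64 on uninjured arrays 1 to 4, and 8.42, 8.94 and 9.07 on blastema arrays 1 to 3. Every blastema array was above every uninjured array, with 0.66 between the nearest values. The means were 7.36 ± 0.43 (SD, n = 4) and 8.81 ± 0.35 (SD, n = 3), so that the gene rose 2.74-fold (95% interval 1.81 to 4.14, 1.45 ± 0.26 log2 units with SE, limma adjusted p = 0.0150). Omitting blastema array 2 ended the call (1.39, limma adjusted p = 0.0704), and so did omitting blastema array 3 (1.32, 0.0746).

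Prrx2, its paralogue, was measured at 6.42, 6.42, 5.69 and 6.12 on the uninjured arrays and at 6.42, 7.11 and 7.002 on the blastema arrays. Blastema array 1 and uninjured array 2 held the same deposited value, and uninjured array 1 lay just above it, so the groups overlapped there, while blastema arrays 2 and 3 lay above all others. The log2 difference was 0.68 ± 0.23 (SE; 95% interval 0.14 to 1.21, limma adjusted p = 0.119), with means of 6.17 ± 0.34 (SD, n = 4) and 6.84 ± 0.37 (SD, n = 3). Blastema array 1 was the lowest of its group for Prrx1 as well.

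The change of Prrx1 was set against that of Prrx2 within each array. The log2 level of Prrx1 minus that of Prrx2 was 0.80, 1.33, 1.12 and 1.52 on the uninjured arrays, with 1.99, 1.84 and 2.07 on the blastema arrays. The difference was larger on every blastema array than on any uninjured array. The 2 genes' log2 fold changes thus differed by 0.77, with a 2-sided exact permutation p of 0.0286, the smallest that the 35 assignments of 7 arrays allow. Adjusted over the 3 paralogue pairs compared, p was 0.0857, which did not pass 0.05.

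Twist1, the limb and skull mesenchyme member of its pair, lay at 6.53, 6.53, 5.99 and 6.29 on the uninjured arrays and at 6.97, 6.97 and 7.21 on the blastema arrays. All 3 blastema arrays were above all 4 uninjured arrays, by 0.43 at the nearest. With means of 6.33 ± 0.26 (SD, n = 4) and 7.05 ± 0.14 (SD, n = 3), Twist1 rose 1.64-fold (95% interval 1.29 to 2.09, 0.72 ± 0.15 log2 units with SE, limma adjusted p = 0.0258). The call ended with more of the omissions than that of Prrx1. Its limma adjusted p was 0.0747 without uninjured array 4, and 0.0518, 0.0786 and 0.109 without blastema arrays 1, 2 and 3 in that order. Without both arrays numbered 1 it was 0.0654.

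Twist2, known from dermal fibroblasts, was listed at 4.11, 4.23, 4.51 and 3.91 on the uninjured arrays and at 4.38, 4.23 and 4.28 on the blastema arrays. The groups overlapped, and all values were below the background proxy, so this probe set could show little. The log2 difference was 0.11 (95% interval -0.21 to 0.42, limma adjusted p = 0.668). The within-array difference of Twist1 and Twist2 was computed as for the Prrx pair, and its test is not read here because it cannot compare a change of Twist1 with that of a gene not above background.

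**Figure D2:**
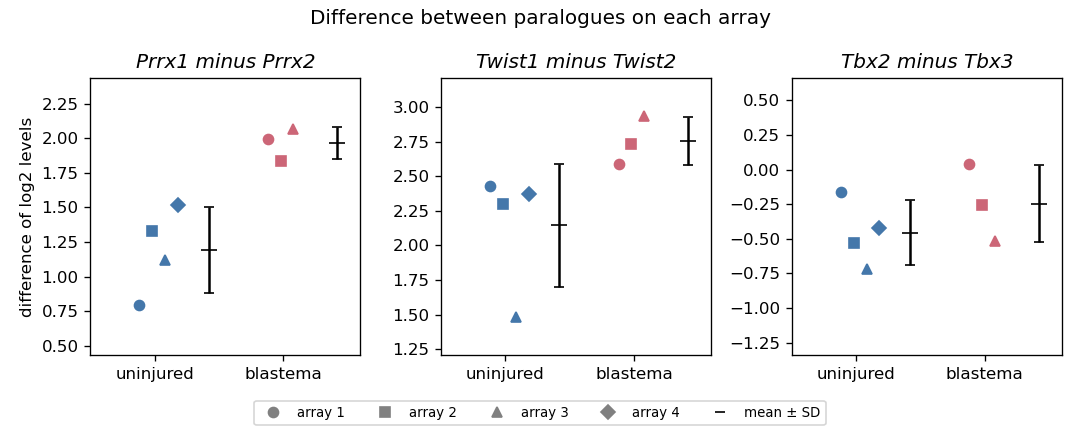
Within-array difference of log2 levels (vertical axis) for the 3 paralogue pairs on the 4 uninjured and 3 blastema arrays, with mean ± SD. The groups do not overlap for Prrx1 minus Prrx2 and overlap for Tbx2 minus Tbx3. Twist2 was below the background proxy on all 7 arrays, so the middle panel says nothing of its change.

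Msx2, a homeobox gene of the digit tip and nail region, was at 8.71, 8.17, 8.12 and 8.12 on the uninjured arrays and at 8.84, 8.59 and 8.34 on the blastema arrays. The array numbered 1 was the highest of each group, and uninjured array 1 exceeded blastema arrays 2 and 3. The log2 difference was 0.31 (95% interval -0.11 to 0.73, limma adjusted p = 0.337), from 8.28 ± 0.29 (SD, n = 4) to 8.59 ± 0.25 (SD, n = 3). Fitted with the arrays numbered 1 as a block, the Msx2 difference was 0.27 (limma adjusted p = 0.0826), and without those arrays it was 0.33.

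Lmx1b, the dorsal limb gene whose loss in people affects nails and kneecaps, was also highest on the array numbered 1 of each group, with 7.17 on uninjured array 1 and 7.21 on blastema array 1. The other uninjured arrays were at 6.85, 6.92 and 6.86 and the other blastema arrays at 6.91 and 6.92. The groups overlapped, with a log2 difference of 0.06 (95% interval -0.20 to 0.32, limma adjusted p = 0.777). Tbx2, described below, was likewise highest on the array numbered 1 of each group. The mean of 11 keratinocyte and nail markers was lowest on uninjured array 1 (11.10, against 11.26 to 11.34 on the others), and was 10.25, 10.41 and 10.22 on blastema arrays 1 to 3. Its members differed, with Krt31 highest and Krt2 lowest on the array numbered 1 of each group, both singled out after their values were seen. The part of skin or nail tissue in the values of Msx2 and Lmx1b was not tested.

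Alx4, the anterior limb gene, was at 5.94, 5.86, 5.24 and 5.82 on the uninjured arrays and at 6.00, 6.13 and 6.22 on the blastema arrays. The groups did not overlap, but by only 0.06, and uninjured array 3 lay well under the rest and under the background proxy. The log2 difference was 0.40 ± 0.17 (SE; 95% interval 0.00 to 0.80, limma adjusted p = 0.200), and 0.24 without uninjured array 3. Shox2, the proximal limb gene, gave 5.11, 5.09, 5.11 and 5.22 on the uninjured arrays, with 4.93, 5.11 and 5.11 on the blastema arrays. Of these values 4 were identical to the last digit, and all were below the background proxy, so the difference of -0.08 (95% interval -0.25 to 0.08, limma adjusted p = 0.520) was between values at the level of background.

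Neither of the T-box repressor genes Tbx2 and Tbx3 passed the test. Tbx2 lay at 6.37, 6.11, 5.89 and 6.35 on the uninjured arrays and at 6.68, 6.46 and 6.38 on the blastema arrays. The blastema arrays were above the uninjured ones, by 0.01 at the nearest. Its log2 difference was 0.33 ± 0.14 (SE; 95% interval 0.01 to 0.65), which did not pass the adjustment over all genes (limma adjusted p = 0.191). Tbx3 lay at 6.53, 6.64, 6.61 and 6.77 on the uninjured arrays and at 6.64, 6.72 and 6.90 on the blastema arrays, with overlap and a difference of 0.12 (95% interval -0.09 to 0.32, adjusted p = 0.466). The fold changes of the pair differed by 0.21 (2-sided exact permutation p = 0.343, adjusted p = 0.343). The interval for Tbx3 excludes a 2-fold change of the deposited level in either direction, as do those for Lmx1b, Tbx2 and Msx2. That for Alx4 does so as well, but its uninjured mean was only 0.20 above the background proxy, which limits that reading.

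**Figure D3:**
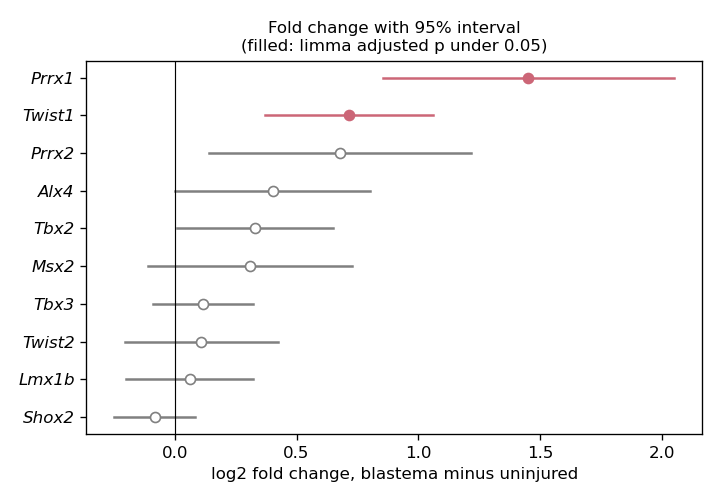
Log2 fold change of each gene (horizontal axis, blastema minus uninjured) with its 95% interval from limma, filled where the adjusted p was under 0.05. Prrx1 (1.45) and Twist1 (0.72) are filled, and 9 of the 10 estimates are above 0 (6 of 10 when arrays are scaled to reference genes).

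Among the uninjured digits, array 3 was the lowest for Prrx1, Prrx2, Twist1, Tbx2 and Alx4 and the highest for Twist2. The mean of 12 fibroblast marker genes was lowest on that array as well, at 7.65, with 8.36, 8.56 and 8.35 on uninjured arrays 1, 2 and 4. In the blastema this mean was 9.48, 9.96 and 10.06 on arrays 1 to 3, and Prrx1 was likewise lowest on array 1 and highest on array 3. The osteoblast, chondrocyte, pericyte and macrophage marker means were likewise lowest on uninjured array 3 (5.63, 5.84, 7.06 and 6.04) and on blastema array 1 within their groups. The endothelial and osteoclast means were also lowest on blastema array 1 within their group. In the uninjured digits they were instead lowest on array 1 (6.01 and 5.53, against 6.20 and 5.58 on array 3). The osteoblast mean was highest on blastema array 2 (9.38), unlike Prrx1. The chondrocyte, endothelial, pericyte, macrophage and osteoclast means were highest on blastema array 3, like Prrx1. Among the uninjured digits the fibroblast, osteoblast, endothelial and macrophage means were highest on array 2, like Prrx1. The chondrocyte, pericyte and osteoclast means were highest there on array 4. The part of these cell types in the rise of Prrx1 was not tested.

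Genes with the profile most like that of Prrx1 were sought by the Euclidean distance between deviations from each gene's own mean over the 7 arrays. The nearest were Vim (distance 0.24 log2 units), the intermediate filament of mesenchymal cells, Lcp1 (0.25), an actin-bundling protein of leukocytes, Lama4 (0.26), a laminin chain of vessel walls, and Vcan (0.27), a matrix proteoglycan. Their log2 fold changes were 1.55, 1.41, 1.56 and 1.34. For Twist1 the nearest were Podnl1 (0.21, with an uninjured mean of 5.35 that lay below the background proxy), Tspan2 (0.22), Tmem184b (0.23) and the Wnt pathway factor gene Tcf7l1 (0.25), with log2 fold changes of 0.68, 0.80, 0.73 and 0.83.

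Among the 29 other transcription factors of the limb bud on the array, 2 rose and 1 fell, counts near the shares over all genes (4.98% and 4.66%), and the median was 0.07. The single lower call was absent in 5 of the 7 omissions of an array, and 1 gene was higher in 6 of them. Dlx5, a homeobox gene of the limb ridge and of bone-forming cells, was at 9.32 to 9.66 on the uninjured arrays and 10.32 to 10.52 on the blastema arrays, a log2 fold change of 0.99 ± 0.10 (SE, limma adjusted p = 0.00280). Its call held in all 18 alternatives. Gli3, the Hedgehog pathway factor, rose by 0.69 ± 0.17 (adjusted p = 0.0486), a call kept in 1 of the 7 omissions of an array. Meis1, a proximal limb homeobox gene, had means of 7.21 ± 0.40 (SD, n = 4) and 6.03 ± 0.30 (SD, n = 3) and fell by 1.18 ± 0.23 on the log2 scale (adjusted p = 0.0227), with its call kept in 2 of those 7. The call of Gli3 was kept without blastema array 1 only, and that of Meis1 without uninjured array 1 or blastema array 2 only (in the other omissions the adjusted p was at least 0.0706 for Gli3 and 0.0625 for Meis1).

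In the lists of other T-box, paired-type and LIM-homeodomain genes, no gene passed the test. Of 14 other T-box genes 0 were called, and the smallest p was that of the hindlimb gene Tbx4 (0.34, limma adjusted p = 0.0544). Tbx4 passed in 4 of 18 alternatives (adjusted p down to 0.0237). Of 14 other paired-type homeobox genes 0 were called, with Vsx1 (-0.30, adjusted p = 0.187) at the smallest p, and 8 of the 14 were at or below the background proxy in both groups. Of 16 LIM-homeodomain and cofactor genes 0 were called. Ldb2, a cofactor that binds such proteins, was nearest (0.91, adjusted p = 0.0600). It passed in 6 of 18 alternatives, among them the omission of blastema array 1 (0.0370). At an unadjusted p under 0.05 there were 4, 1 and 5 genes in these lists, counts not read as a result because the share of all genes is not given.

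The helix-loop-helix partners and inhibitors of TWIST showed no call among 9 genes. An unadjusted p under 0.05 was found for 4, a count likewise not read as a result. Id1, an inhibitor of helix-loop-helix proteins, had the smallest p, with 8.01 to 8.45 on the uninjured arrays and 7.69 to 7.87 on the blastema arrays. The groups did not overlap, and the log2 difference was -0.45 (limma adjusted p = 0.0560). Id1 passed in 8 of 18 alternatives, among them the omission of uninjured array 4 (0.0480). Under reference gene scaling, described below, Id1 passed too (0.00682), but that setting called 9008 of the 22180 genes lower. Without blastema array 1, 1 gene of this list was called higher. Of 36 measured Hox genes, which set position along the limb, 3 rose and 1 fell, with a median of -0.07. Over all genes 4.98% were higher and 4.66% lower, and the Hox counts are not read as a result. Named after their values were seen, these were the distal limb genes Hoxd13 (1.01) and Hoxa13 (0.77), Hoxc12 (0.62) and, lower, Hoxc6 (-0.65).

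Among 23 other mesenchyme factors 4 rose and 0 fell (median 0.09), where 4.98% of all genes were higher and 4.66% lower. Creb3l1, a regulator of collagen secretion in bone cells, rose by 2.54 ± 0.16 (SE, limma adjusted p = 0.00126), more than any of the 10 limb factors. Snai2, a zinc finger factor of mesenchymal transition, rose by 1.24 ± 0.17 (adjusted p = 0.00680). Both held in all 7 omissions of an array. Runx1 (0.87, adjusted p = 0.0115) and the cartilage factor Sox9 (0.77, adjusted p = 0.0298) rose as well. The call of Runx1 was lost without blastema array 2 (adjusted p = 0.0529) or 3 (0.0601), and that of Sox9 was kept only without uninjured array 1 or blastema array 2, with 0.0684 to 0.115 in the other omissions. The count fell to 2 without blastema array 3, and 2 genes were lower without uninjured array 1.

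Of 21 limb signals and receptors 5 rose and 0 fell (median 0.15), where 4.98% of all genes were higher and 4.66% lower. Bmp4, a ligand to which Msx2 answers, was at 7.64 to 8.23 on the uninjured arrays and 8.93 to 9.55 on the blastema arrays, a rise of 1.27 ± 0.18 (SE, limma adjusted p = 0.00770). The FGF receptor gene Fgfr1 rose by 1.08 ± 0.17 (adjusted p = 0.0114), and both kept their calls in all 7 omissions. The Hedgehog receptor gene Ptch1 (0.45, adjusted p = 0.0488) rose too, as did Bmp7 (0.39, adjusted p = 0.0327), named after its value was seen. The BMP antagonist gene Grem1 was called higher (adjusted p = 0.0193), but it was below the background proxy on all 4 uninjured arrays (at most 5.47) and only 0.45 above it in the blastema mean, so the size of its rise is not given. Grem1 kept its call without uninjured array 1, 2 or 3 and lost it otherwise (adjusted p up to 0.0832), and Ptch1 kept its call without uninjured array 1 only (0.0648 to 0.172 otherwise). The count was 3 when uninjured array 2 or 3, or blastema array 1 or 2, was omitted, and 2 when uninjured array 4 or blastema array 3 was. Omitting uninjured array 3 left 1 gene lower. Wnt7a, the dorsal signal that induces Lmx1b in the limb bud, and Fgf8 and Shh were at or below the background proxy in both groups.

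**Figure D4:**
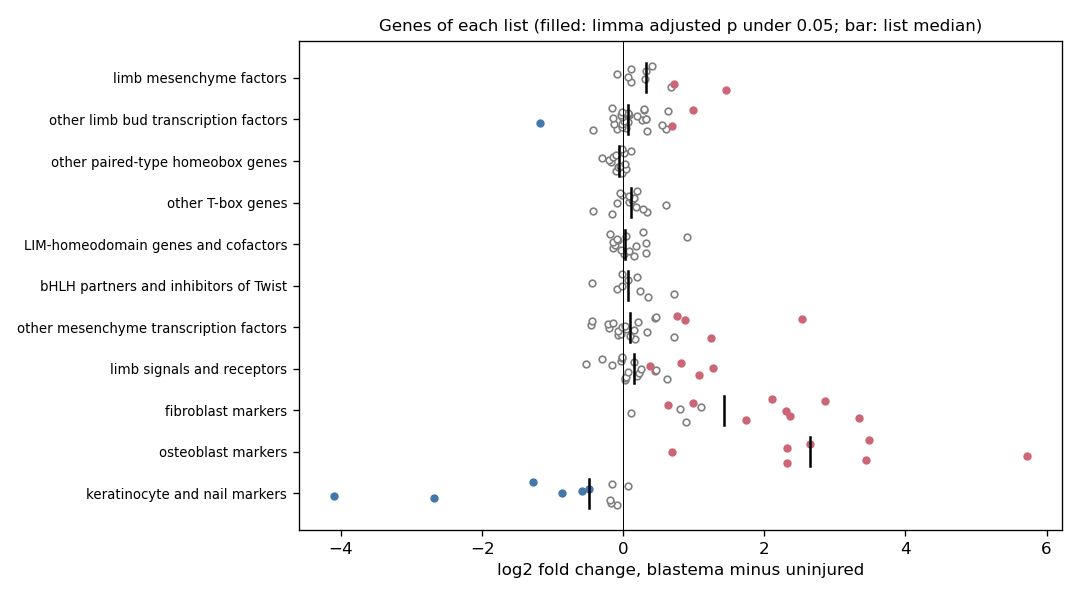
Log2 fold change (horizontal axis) of each measured gene in the lists named at left, filled red where higher and blue where lower in the blastema at a limma adjusted p under 0.05, with a bar at the list median. The limb mesenchyme factors (median 0.32) lie between the other limb bud factors (0.07) and the fibroblast markers (1.43).

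Several lists of cell type markers had larger median differences than the 10 factors. Their counts below stand beside shares of 4.98% higher and 4.66% lower over all genes. Fibroblast markers were higher for 8 of 12 genes and lower for 0 (median 1.43), and their mean level was 7.65 to 8.56 in the uninjured digit and 9.48 to 10.06 in the blastema. All 7 osteoblast markers measured, of 10 named, were higher (median 2.64, mean level 5.63 to 6.57 and 8.89 to 9.38). With 1 array omitted, 7 to 9 fibroblast and 6 to 7 osteoblast markers were higher. Of 11 keratinocyte and nail markers 0 were higher and 6 lower (median -0.48, mean level 11.10 to 11.34 and 10.22 to 10.41), or 3 lower without blastema array 2, 4 without uninjured array 2 or 4 or blastema array 3, and 5 without any other. The chondrocyte list had 4 of 8 higher, the osteoclast list 7 of 8, the endothelial list 3 of 8, the pericyte list 3 of 8 and the macrophage list 4 of 9, with 0 lower in each. With 1 array omitted these counts ranged over 2 to 4, 5 to 7, 0 to 4, 1 to 3 and 1 to 5, and 1 macrophage marker was lower without blastema array 1. The fewest were seen without blastema array 3 in each list except the osteoclast list (blastema array 2). Of 6 Schwann cell markers 0 were higher and 1 lower, Erbb3, which kept its call only without blastema array 1, and 0 muscle or melanocyte markers of 6 and 5 were called (0 at an unadjusted p under 0.05 in either). The part of these shifts in the values of Prrx1 and Twist1 was not tested.

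The array medians were 5.53 to 5.58, so a difference between groups in total RNA would not show. Scaling each array to 7 reference genes, of which Gusb and Gapdh themselves rose, moved the median of all genes from -0.0054 to -0.296 and the calls from 1105 higher and 1034 lower to 661 and 9008 (6.84% higher in place of 51.7%). In that scaling the 10 factors had a median of 0.03. Prrx1 then rose by 1.16 (limma adjusted p = 0.00472), Twist1 differed by 0.42 with no call (0.0552), and Shox2 was called lower (-0.37, adjusted p = 0.0183).

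**Figure D5:**
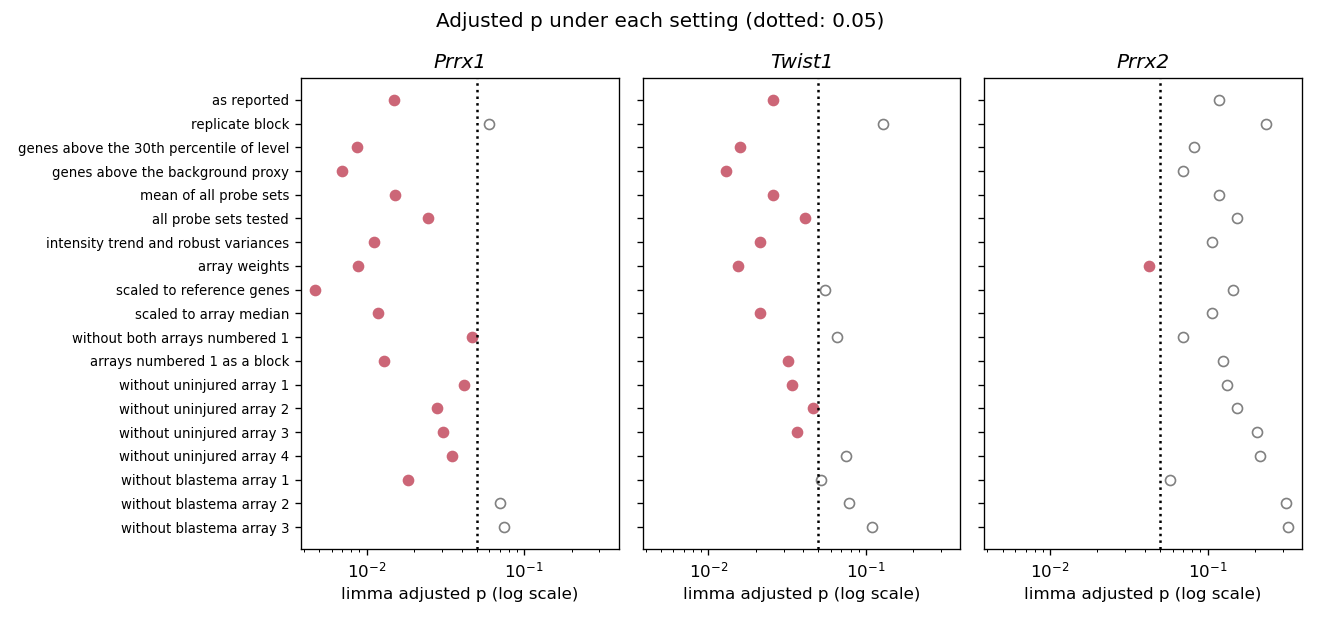
Limma adjusted p (horizontal axis, log scale) of Prrx1, Twist1 and Prrx2 as reported and under each alternative setting, filled where under the dotted line at 0.05. Prrx1 is filled in 15 of 18 alternatives, Twist1 in 11 and Prrx2 in 1.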

How the data were processed

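The deposited table holds log2 levels that the authors made by RMA (background correction, normalization between arrays, probe set summary) in oligo, an R package, per the submitters' processing notes, with versions, settings and build not given in the sources used here. Labels were made from 400 ng of total RNA, per the labels' protocols. RMA can list identical values on several arrays. For 52.93% of genes at least 2 arrays shared 1 value.

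Genes came from probe sets with 1 listed symbol, the brightest where several existed. The lmFit and eBayes functions of limma 3.58.1 (R 4.3.3) compared 3 blastema with 4 uninjured arrays over all 22180 genes, with no covariate, a 2-sided test and Benjamini-Hochberg adjustment. Genes under 0.05 were called, and single adjusted p-values come from this fit unless a permutation test is named. The step was tested on simulated data. Paralogue differences used exact permutation tests. The genes, lists and settings were chosen with earlier results of these data known.

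The naming rule takes the 10 genes, up to 4 called genes per list by size of change (the smallest p where none was called) and the 4 nearest profiles. Alternatives were the replicate number as a block, level filters, probe set choices, variance and weight models, 2 scalings, arrays numbered 1 omitted or as a block, and the omission of each array. Promoter windows were read from a RefSeq table. Figures used matplotlib 3.10.9.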

Additional observations from a re-analysis of the deposited data

Results flagged for a closer look

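Within the 4 uninjured arrays 1 array stood apart by Dixon's ratio (its gap to the nearest other array over the whole range) in 12 of 60 sets of values examined, at a critical value that chance alone respects in about 95% of sets. Of the limb mesenchyme factors, 3 were among them. Msx2 was high on array 1 (8.71 against 8.12 to 8.17, ratio 0.904), Alx4 was low on array 3 (5.24 against 5.82 to 5.94, ratio 0.834) and Shox2 was high on array 4 (5.22 against 5.09 to 5.11, ratio 0.876), a gap of small size below the background proxy. The within-array difference of Twist1 and Twist2 was low on array 3 (1.48 against 2.30 to 2.43, ratio 0.864), with Twist2 below the background proxy on all arrays.

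Among genes of the other lists, array 1 stood apart for Meis1 (6.62 against 7.36 to 7.47, ratio 0.868), Krt9 (9.10 against 11.05 to 11.21, ratio 0.924), Krt2 (11.72 against 12.43 to 12.52, ratio 0.888) and Cd68 (9.21 against 8.56 to 8.62, ratio 0.912). Pmel was flagged as well (5.94 against 5.74 on each other array, ratio 1.00). There the other arrays shared 1 identical deposited value, which fixes the ratio at 1.00, so this flag says little. Array 3 stood apart for Alpl (6.02 against 6.93 to 6.95, ratio 0.976) and C1qb (6.34 against 6.81 to 6.86, ratio 0.911), and array 2 for C1qa (6.08 against 5.96 to 5.97, ratio 0.874). The causes were not tested.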

How the results depend on the processing

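Of 177 values of the 10 genes under alternative settings, 161 kept their direction and their side of the threshold. The count of higher genes, 2 as reported, was 0 with the replicate number as a block (Prrx1 adjusted p = 0.0600, Twist1 0.129), 1 under reference gene scaling, 1 without both arrays numbered 1, and 0 to 2 when 1 array was omitted. The count of lower genes was 1 under reference gene scaling. Same-numbered arrays deviated together for numbers 1 and 2 but not 3 (r = 0.286, 0.151 and -0.065 across genes), so the numbers are not taken to pair the samples. The block gave 295 higher and 304 lower genes in all. With it Dlx5, Creb3l1 and Sox9 kept their calls, and calls were lost for Snai2 (adjusted p = 0.0582), Fgfr1 (0.0588), Runx1 (0.0723), Meis1 (0.0745), Bmp4 (0.0777), Grem1 (0.0793), Gli3 (0.168) and Ptch1 (0.175). Array weights added Prrx2 (adjusted p = 0.0425). Directions turned under reference gene scaling for Twist2 (-0.18), Lmx1b (-0.23) and Tbx3 (-0.17), and for Lmx1b without blastema array 1 (-0.037, in a range of -0.037 to 0.13 over the omissions), none of them called. Over all genes the higher calls were 457 to 1286 and the lower calls 365 to 1009 when 1 array was omitted, and 1560 genes were lower with the arrays numbered 1 as a block. The Prrx and Tbx paralogue differences kept their direction in every setting run, but with 1 array omitted no exact test could reach 0.05. The Prrx direction could not turn with 1 array omitted, because its groups did not overlap. Scaling of whole arrays cancels in a within-array difference, so those settings could not change either pair. Signal near background limits Twist2, Shox2 and Alx4.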
